A study of Mus musculus with 6 samples.

Results

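Male germ cells carry a set of thiol and selenium-dependent redox enzymes, and the transcripts of 8 such genes are described here: the selenoprotein genes Gpx4 and Txnrd3, the superoxide dismutase gene Sod1, the peroxiredoxin genes Prdx1 and Prdx4, and the sperm thioredoxin genes Txndc2, Txndc8 and Nme8. They were found by their gene symbol in the deposited tail table, where they had 17 of 12114 contigs, a contig being 1 reference transcript to which reads were aligned. Among 11517 annotated transcripts with 6985 gene symbols, these 17 took 7992 reads. Tail length and accumulation were compared between pachytene and diplotene (P/D) spermatocytes, which are meiotic cells, and round spermatids (RS), their haploid products. Both were sorted by Hoechst fluorescence and light scatter from testes of adult male C57BL/6J/B6 mice with no other allele or treatment. Dead cells were excluded with propidium iodide. Each cell type had 3 samples, and each sample was a pool from 3 mice. Per the study's methods both cell types were taken from the same animals, so the groups share mice, but which P/D and RS pools correspond is not stated. The sort gate for P/D spermatocytes enriched these cells without purifying them, and by the study's microscopy it was less pure than the RS gate. The 3 P/D samples were sequenced as 1 barcoded library and the 3 RS samples as another, so cell type and library cannot be told apart.

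GPX4 reduces lipid hydroperoxides with glutathione and is abundant in late spermatids, where it also becomes a structural protein of the sperm midpiece. Its gene yields mitochondrial, cytosolic and sperm nuclear forms from different starts. TXNRD3 is a testis-rich thioredoxin and glutathione reductase, SOD1 removes superoxide in the cytosol, PRDX1 is a cytosolic peroxidase, and PRDX4 works in the endoplasmic reticulum and has a testis form that begins at a different first exon. TXNDC2 and NME8 are thioredoxin proteins of the sperm tail, and TXNDC8 is one of the forming acrosome. Messages for late sperm proteins are commonly made in spermatocytes or RS, stored, and translated later, and the poly(A) tail is one of the features by which stored and translated messages differ.

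Selenoproteins are read through a UGA codon as selenocysteine, and the codon of both selenoprotein genes is shown because it defines this class. The following coding-strand windows come from GENCODE vM21 transcripts on GRCm38, with the codon in capitals. In Gpx4 the codon is chr10:80054737-80054739 on the plus strand, in exon 3 of the leading contig, and in Txnrd3 it is chr6:89674789-89674791 on the plus strand, in exon 16, the last exon.
Gpx4: cgtggcctcgcaaTGAggcaaaactgacgt
Txnrd3: tcagaaaggctgcTGAggctagccctgctg

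The tail is added downstream of a poly(A) signal, and the windows below hold the last match to AATAAA or ATTAAA (6 letters, sense strand) in the final 40 bases of each member's leading contig, in capitals, again from GENCODE vM21 on GRCm38. AATAAA was found in 47.8% and ATTAAA in 13.4% of 48042 protein-coding transcripts searched in this way, and at least 1 of them in 59.1%. No match was found in the Txndc8 contig or in the leading Prdx4 contig, whose annotated 3′ end is marked as not found.
Gpx4 (chr10:80056409-80056438, plus strand): ctgccttgtgggAATAAAatgtagaaatgt
Sod1 (chr16:90226295-90226324, plus strand): taccctcaaaccATTAAActgtaatctgaa
Txnrd3 (chr6:89675500-89675529, plus strand): tattacactaaaATTAAAaaaaaatgcctg
Prdx1 (chr4:116700791-116700820, plus strand): tctgctctgcaaAATAAAtaggacttggcc
Txndc2 (chr17:65637520-65637549, minus strand): aagcatttcagaATTAAAgtaatcatatgt
Nme8 (chr13:19645082-19645111, minus strand): atgcatggtaacAATAAAaactgtgacccc
AATAAA thus stood in Gpx4, Prdx1 and Nme8 and ATTAAA in Sod1, Txnrd3 and Txndc2. Whether the signal goes with the tail difference was not tested.

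The samples held between 244004 and 474688 reads, and the members took 0.336% to 0.362% of the reads of a P/D sample and 0.418% to 0.477% of those of an RS sample. The 10 round spermatid markers took 0.0217% to 0.0363% of P/D reads and 0.311% to 0.331% of RS reads, and the 10 elongating spermatid markers took 0.194% to 0.262% and 2.47% to 2.98%. All 20 had reads in all samples. The P/D share was thus 9.54% of the RS share for the first list and 8.16% for the second. By the study's account, the protamine, transition protein, Smcp and Odf1 messages of the second list are made in RS and translated later. That list therefore does not separate elongating spermatids from RS by their RNA. The 8 pachytene and diplotene markers took 0.165% to 0.169% of P/D reads and 0.0461% to 0.0531% of RS reads, and the only sample in which one of them, Pou5f2, had 0 reads was RS replicate 1. Not all of them fell: of 11 transcripts of this list tested for accumulation, 9 were lower and 2 higher in RS. Summed over its contigs, Ccna1 had raw counts of 57, 91 and 70 in P/D samples against 88, 130 and 103 in RS samples. Every RS sample held more reads in all than every P/D sample, so these counts alone do not show a rise. Its transcript ENSMUST00000197238 was lower in RS (log2 difference -0.57, adjusted p = 0.0208 from edgeR). The 8 Sertoli cell markers had 1 to 4 reads in a P/D sample and 2 in an RS sample, with no contig for Sox9, Wt1, Amh or Gata4, and the 6 Leydig cell markers had 3 to 7 and 1 to 5 reads.

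Mean tail length was tested with limma and read counts with edgeR's quasi-likelihood test, each over all annotated transcripts that passed a read filter, and called at a Benjamini-Hochberg adjusted p below 0.05. Of 6990 transcripts tested for tails, 54.2% were longer and 1.69% were shorter in RS. The median tail difference was 37.4 nt. Of the 17 member contigs, 13 could be tested, and 6 of these, from Gpx4, Sod1 and Txnrd3, were longer, 0 were shorter and 7 did not pass the test. At an unadjusted p below 0.05, and by the methods' t-test, 0 were shorter as well. Of the 13, 5 had under 10 reads in at least 2 P/D samples and entered the test through their RS reads. Where 10 reads were required in at least 2 samples of both cell types, 5 of 8 member contigs and 2956 of 3889 transcripts were longer. Of 6005 transcripts tested for accumulation, 32.6% were higher and 30.8% were lower in RS, with a median log2 difference of -0.03. Of the 17 member contigs, 12 could be tested. Of these, 8 were higher, 1 was lower and 3 did not pass, but 4 of the 12 had under 10 reads in at least 2 P/D samples and entered the test through their RS reads, so the count is given as a description only. These 4, from Txndc2, Txndc8 and Prdx4, are described below by their reads and without a p for accumulation. In such bulk samples, fewer cells of a type and less RNA per cell cannot be told apart.

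**Figure D1:**
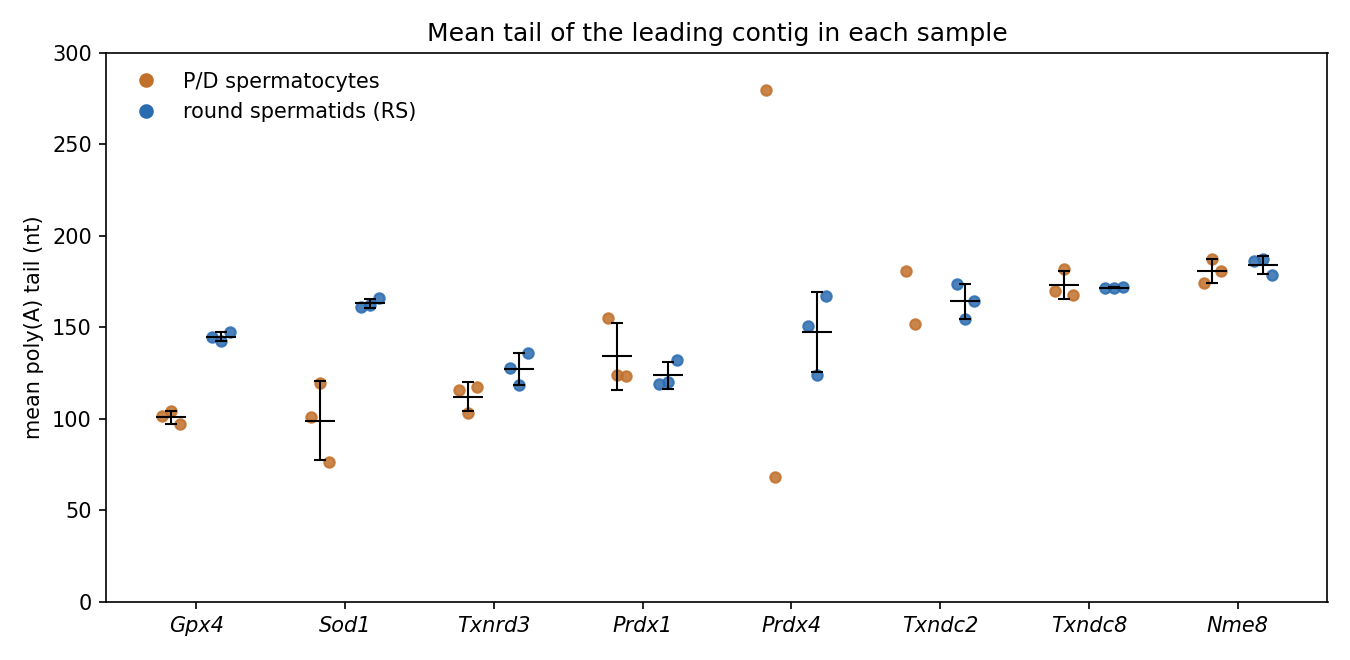
Mean poly(A) tail in nt (vertical axis) of the leading contig of each gene in each of the 6 samples (points; orange, P/D spermatocytes; blue, RS). Bars give the mean and SD where all 3 samples have a mean. Gpx4 and Sod1 separate by cell type at means of 101 and 99.0 nt in P/D spermatocytes against 145 and 163 nt in RS, whereas Txndc8 and Nme8 lie at 167 nt or more in all 6 samples.

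Gpx4 had 4977 reads over the 6 samples, and its tails were longer in RS while its summed accumulation did not pass the test. Its leading contig, Gpx4-202 (ENSMUST00000105372, chr10:80053488-80056439, plus strand, 7 exons, 959 nt, 197 codons), begins at the first exon that holds the mitochondrial start. Its mean tail was 101, 104 and 97.2 nt in P/D replicates 1 to 3, against 145, 143 and 148 nt in RS, from 672 to 787 reads per sample. All RS means lay above all P/D means, as they did for 63.6% of the 6464 tested transcripts with a mean in all 6 samples. The difference was 44.0 nt (standard error 5.45, adjusted p = 0.00101 from limma), which is larger than that of 57.0% of the transcripts tested.

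The difference ran through the distribution of single reads. The 25th percentile, the median and the 75th percentile of single Gpx4-202 reads were 60.4, 90.6 and 134 nt over 2161 P/D reads and 119, 146 and 169.7 nt over 2277 RS reads, so the interquartile range narrowed from 73.8 to 50.4 nt. Reads of 30 to 120 nt made up 65.0% ± 3.68 in P/D spermatocytes against 25.4% ± 2.22 in RS (mean ± SD, n = 3). Reads of 120 to 210 nt made up 29.9%, 31.8% and 26.0% in P/D samples against 69.9%, 67.5% and 71.6% in RS samples. The groups did not overlap, and the exact two-sided permutation test gave p = 0.1, the smallest it can give with 3 samples against 3.

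**Figure D2:**
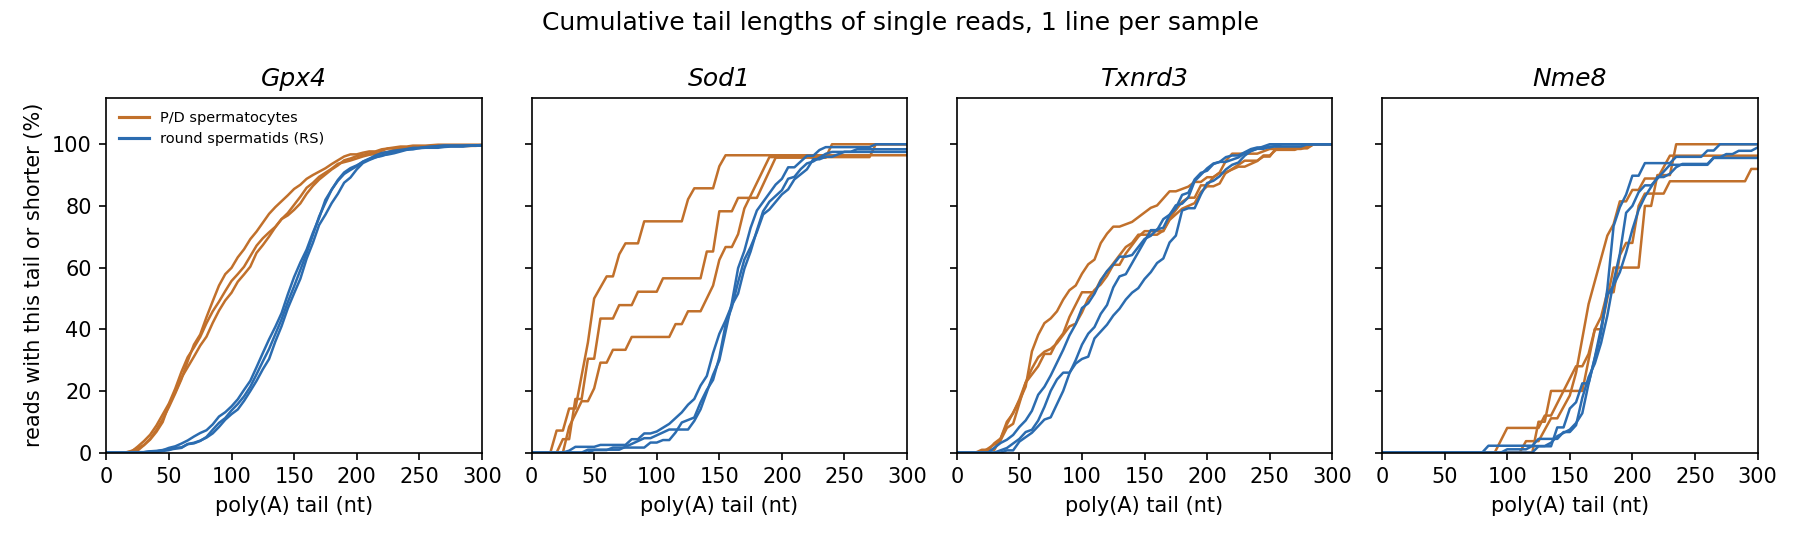
Percentage of reads with a tail of a given length in nt or shorter, for the leading contigs of Gpx4, Sod1, Txnrd3 and Nme8, with 1 line per sample (orange, P/D spermatocytes; blue, RS). The Gpx4 lines of the 2 cell types are apart over most of the range, and the Txnrd3 lines lie closer. At 170 nt the Nme8 lines are at 40% to 55.6% in P/D spermatocytes against 28.9% to 30.9% in RS, and at 190 nt they overlap. The Nme8 P/D lines rest on 27, 25 and 10 reads, and its mean tail difference did not pass the test.

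In accumulation, Gpx4-202 had 2698, 2398 and 2717 normalised CPM (reads scaled to the effective library size) in P/D samples against 2412, 1682 and 2102 in RS samples. The groups overlapped, and the log2 difference was -0.34 (standard error 0.10, adjusted p = 0.00368 from edgeR). This call was lost with DESeq2 (-0.28, adjusted p = 0.0904), without RS replicate 2 (-0.16, adjusted p = 0.159), with at least 10 reads required in every sample (-0.15, adjusted p = 0.223) and with the contigs of the gene summed. The last gave a log2 difference of -0.09 (standard error 0.09, adjusted p = 0.419) for Gpx4 as a whole.

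The division of Gpx4 reads among its contigs differed between the cell types. Gpx4-201 (ENSMUST00000097227, chr10:80054037-80056439, 995 nt, 253 codons) begins at an alternative first exon within the first intron of Gpx4-202, the arrangement known for the sperm nuclear form. It had 19, 19 and 20 reads in P/D samples against 110, 112 and 120 in RS samples. This corresponded to 76.3, 60.1 and 74.3 CPM against 345, 239 and 349 CPM, with no overlap. Its log2 difference was 2.14 (standard error 0.21, adjusted p = 1.55e-11 from edgeR). As a share of Gpx4 reads it went from 2.58% ± 0.156 in P/D spermatocytes to 12.6% ± 0.861 in RS (mean ± SD, n = 3), and the share on Gpx4-202 from 95.7% ± 0.278 to 83.7% ± 1.80 (exact permutation test, p = 0.1 for each, the smallest possible). The 2 contigs share their annotated 3′ end and differ at the first exon. Nanopore reads start from the 3′ end, so a read that stops short of the first exon does not tell them apart.

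The 250 bases before the RefSeq start of this alternative form (GRCm38.p6, chr10:80053761-80054010, plus strand) are shown because its share of Gpx4 reads differed between the cell types. Capitals mark the match, on the opposite strand, to TGACG, the core of the cAMP response element.
Gpx4 alternative start: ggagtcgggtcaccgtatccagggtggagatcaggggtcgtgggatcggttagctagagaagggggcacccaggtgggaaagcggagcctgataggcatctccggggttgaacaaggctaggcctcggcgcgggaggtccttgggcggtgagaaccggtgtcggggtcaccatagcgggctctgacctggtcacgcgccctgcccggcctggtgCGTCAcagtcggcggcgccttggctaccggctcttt
TGACG on either strand was present in the 250 bases before 17.8% of 32851 RefSeq starts. Among the members it was also present before the start of Sod1, before the usual Prdx4 start and before both RefSeq starts near that of Gpx4-202. The 8-letter TGACGTCA, present before 1.55% of all starts, was before no member start.

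Tails were longer in RS on all 4 Gpx4 contigs. Gpx4-201 had mean tails of 121, 136 and 122 nt in P/D samples against 157, 154 and 167 nt in RS samples, a difference of 32.9 nt (standard error 7.14, adjusted p = 0.00890 from limma). In every sample its mean exceeded that of Gpx4-202, by 25.3 ± 5.85 nt in P/D spermatocytes against 14.2 ± 4.76 nt in RS (mean ± SD, n = 3). These 2 sets of differences overlapped. Gpx4-204 (ENSMUST00000144698), a processed transcript without an annotated reading frame, had 9 to 26 reads per sample and a tail difference of 40.2 nt (standard error 8.53, adjusted p = 0.00812), whereas its accumulation did not pass the test (log2 difference 0.63, adjusted p = 0.101). Gpx4-207 (ENSMUST00000183037) had 0, 3 and 6 P/D reads, so its tail difference of 87.0 nt (standard error 17.5, adjusted p = 0.00981) rests on 9 reads in 2 P/D samples, and the call was lost with the methods' t-test (adjusted p = 0.0546). Its counts were too low to test.

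**Figure D3:**
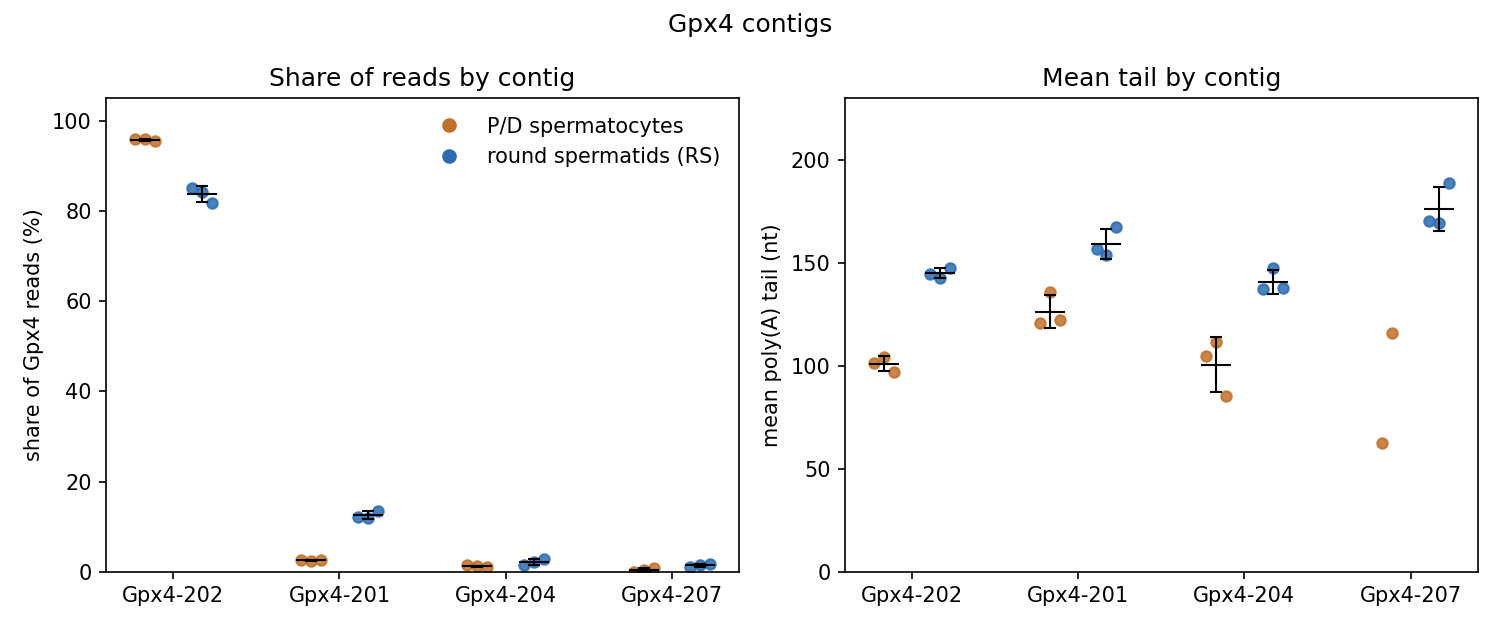
Share of Gpx4 reads in percent (left) and mean poly(A) tail in nt (right) of the 4 Gpx4 contigs in each sample (points; orange, P/D spermatocytes; blue, RS), with the mean and SD where all 3 samples have a value. The share on Gpx4-201 is 2.58% in P/D spermatocytes against 12.6% in RS, and the RS tails lie above the P/D tails on each contig.

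Txnrd3, the second selenoprotein gene, showed a smaller tail difference. Its leading contig, Txnrd3-201 (ENSMUST00000000828, chr6:89643988-89675529, plus strand, 16 exons, 2836 nt, 615 codons), had mean tails of 116, 103 and 117 nt in P/D samples against 128, 119 and 136 nt in RS samples. The lowest RS mean was just above the highest P/D mean. The difference of 15.4 nt (standard error 7.47) did not pass the test (adjusted p = 0.129 from limma), but did when means were weighted by their reads (15.3 nt, adjusted p = 0.0127) or when the test was limited to transcripts with 20 or more reads in all 6 samples (adjusted p = 0.0346). Reads of 120 to 210 nt went from 27.3% ± 6.52 to 43.3% ± 6.91 (mean ± SD, n = 3; exact permutation test, p = 0.1, the smallest possible). In RS, 48.9% ± 7.95 of reads still had tails of 30 to 120 nt, against 25.4% for Gpx4-202. The interquartile range of single reads was 88.6 nt in RS.

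Accumulation of Txnrd3-201 was 301, 414 and 409 CPM in P/D samples against 439.7, 410.3 and 393 CPM in RS samples, which overlap (log2 difference 0.14, standard error 0.14, adjusted p = 0.417 from edgeR). Txnrd3-202 (ENSMUST00000101171, same span, 14 exons, 501 codons) has 2 internal exons fewer. It was higher in RS by a log2 difference of 0.92 (standard error 0.26, adjusted p = 0.00237) and had longer tails by 26.4 nt (standard error 8.91, adjusted p = 0.0450). Its P/D reads were 18, 13 and 35 against 41, 86 and 45 in RS, and neither call held in every alternative. The accumulation call was lost without P/D replicate 2 (0.53, adjusted p = 0.0847). The tail call was lost without P/D replicate 1 (28.4 nt), P/D replicate 2 (19.6 nt), RS replicate 1 (27.1 nt) or RS replicate 3 (21.2 nt), with adjusted p of 0.0643 to 0.122, on medians (33.6 nt, adjusted p = 0.0516) and with the methods' t-test (adjusted p = 0.0803). With both contigs summed, Txnrd3 was higher in RS by a log2 difference of 0.36 (standard error 0.13, adjusted p = 0.0127).

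Sod1 was higher and had longer tails in RS. Sod1-201 (ENSMUST00000023707, chr16:90220754-90226329, plus strand, 5 exons, 641 nt, 154 codons) had 23, 24 and 28 reads in P/D samples against 107, 161 and 123 in RS samples. Its CPM were 92.3, 75.9 and 104 in P/D spermatocytes against 336, 344 and 358 in RS, a ratio of means of 3.81 and a log2 difference of 1.94 (standard error 0.19, adjusted p = 5.95e-12 from edgeR). Mean tails were 101, 119 and 76.6 nt in P/D samples against 161, 162 and 166 nt in RS samples, a difference of 64.1 nt (standard error 11.3, adjusted p = 0.00389 from limma). The RS samples agreed closely, with an SD of 2.60 nt, whereas the P/D samples had an SD of 21.5 nt.

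Single P/D reads of Sod1 spread over a wide range of tails. Over 75 P/D reads of Sod1-201 the 25th percentile was 41.9 nt and the 75th percentile 149 nt, and over 391 RS reads they were 143 and 181 nt. Reads under 30 nt made up 8.99% ± 5.0 in P/D spermatocytes against 0.207% ± 0.359 in RS (mean ± SD, n = 3). Reads of 120 to 210 nt made up 39.1%, 54.2% and 21.4% in P/D samples against 85.0%, 76.4% and 78.9% in RS samples, without overlap (exact permutation test, p = 0.1, the smallest possible). The P/D level of Sod1-201 was 26.2% of its RS level, above the 8.16% and 9.54% found for the spermatid marker lists. How many of its P/D reads came from spermatid RNA was not tested. The other contig, the retained-intron transcript ENSMUST00000232505, had 4 P/D and 3 RS reads.

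The peroxiredoxins differed from each other. Prdx1-204 (ENSMUST00000135573, chr4:116685544-116700822, plus strand, 6 exons, 199 codons), the only Prdx1 contig, had 16, 22 and 22 reads in P/D samples against 17, 33 and 17 in RS samples. Its CPM of 64.2, 69.6 and 81.8 overlapped those of 53.4, 70.5 and 49.5 in RS (log2 difference -0.28, standard error 0.28, adjusted p = 0.384 from edgeR). Mean tails were 155, 124 and 124 nt in P/D samples against 119, 120.4 and 132 nt in RS samples. The difference of -10.4 nt (standard error 10.4, adjusted p = 0.437 from limma) did not pass, and 9.03% of the transcripts tested had a lower one. On medians in place of means Prdx1 was shorter in RS by -26.3 nt (adjusted p = 0.0450), and without P/D replicate 1 the difference of means was 0.10 nt. The share of Prdx1 tails of 120 to 210 nt was 49.1% ± 11.0 in P/D spermatocytes against 33.7% ± 9.12 in RS (mean ± SD, n = 3), with overlapping samples (exact permutation test, p = 0.3).

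Prdx4 had 4 reads over the P/D samples and 176 over the RS samples. Prdx4-203 (ENSMUST00000130349, chrX:155328446-155340754, minus strand, 5 exons), which begins at the upstream alternative first exon, had 0, 1 and 2 P/D reads and 37, 63 and 40 RS reads. From 3 P/D reads and 140 RS reads the ratio per read sequenced was 33.4, with an exact 95% interval of 11.2 to 163.9 that covers counting error only. Prdx4-201 (ENSMUST00000026328, chrX:155323918-155338467, 7 exons, 274 codons), which begins at the usual first exon, had 1 P/D read and 36 RS reads (ratio 25.8, interval 4.34 to 1046). In RS, 80.6% ± 6.48 of Prdx4 reads (SD, n = 3) were on Prdx4-203. Its RS mean tails were 151, 124 and 167 nt, and RS replicate 2 was the lowest. The limma difference of -26.6 nt (standard error 62.0, adjusted p = 0.742) rests on means of 1 and 2 P/D reads, with P/D replicate 1 dropped for want of reads, and gives no usable estimate.

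**Figure D4:**
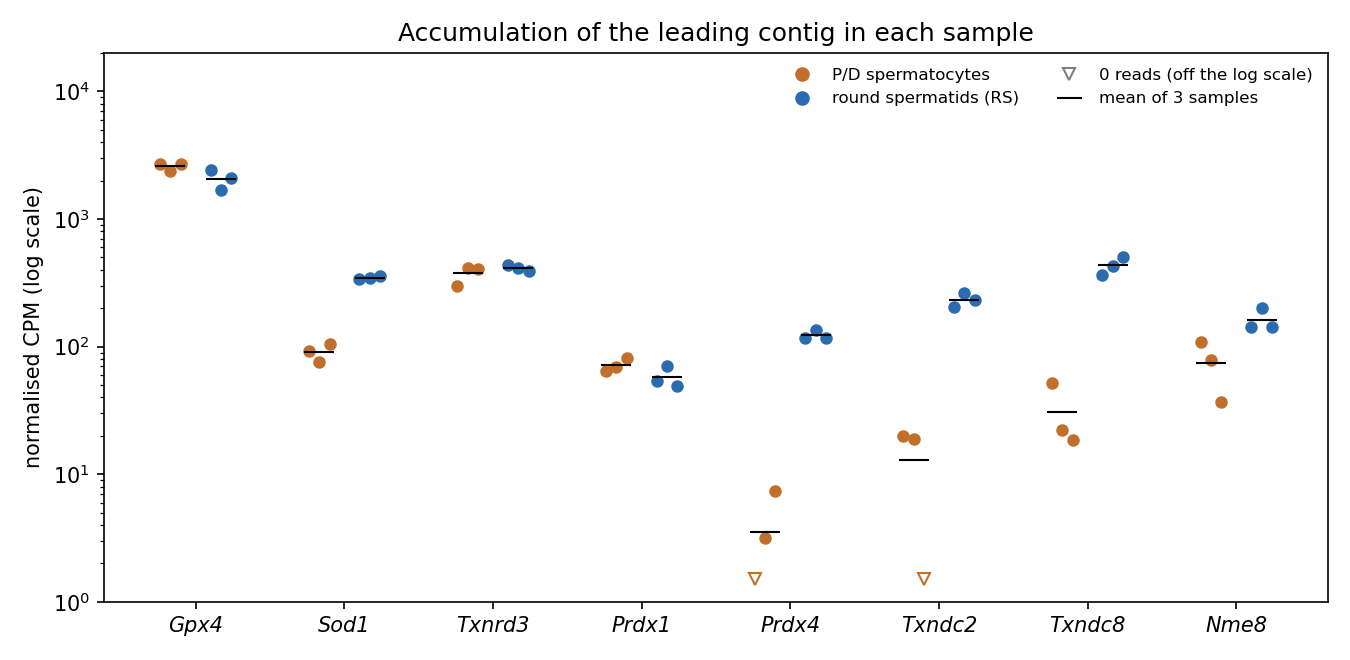
Normalised CPM on a log scale (vertical axis) of the leading contig of each gene in each of the 6 samples (points; orange, P/D spermatocytes; blue, RS; black line, mean of 3 samples). Open triangles mark samples with 0 reads. The P/D points rest on 0, 1 and 2 reads for Prdx4 and on 5, 6 and 0 for Txndc2. These contigs and that of Txndc8 entered the accumulation test through their RS reads. The samples of Sod1, Prdx4, Txndc2, Txndc8 and Nme8 do not overlap between cell types, and Gpx4, Txnrd3 and Prdx1 do. How many of all transcripts separate in this way was not counted. Levels are not compared between genes.

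For the leading contigs of the 3 sperm thioredoxin genes, CPM in every RS sample lay above those in every P/D sample. How many of all transcripts separated in this way was not counted, and 32.6% of those tested were called higher in RS. The P/D tails of Txndc8-201 and Txndc2-201 rest on 25 and 11 reads. Txndc8-201 (ENSMUST00000102897, chr4:57984027-58009124, minus strand, 6 exons, 620 nt, 153 codons) had 13, 7 and 5 reads in P/D samples against 117, 202 and 172 in RS samples. Its CPM went from 52.2, 22.1 and 18.6 to 367, 432 and 501. The ratio of RS to P/D reads, per read sequenced, was 14.1 (exact 95% interval 9.41 to 21.9, counting error only). Mean tails were 170.1, 182 and 167 nt in P/D samples against 171.8, 171.6 and 172.0 nt in RS samples. The difference was -1.40 nt (standard error 6.24, adjusted p = 0.864 from limma), and 14.5% of the transcripts tested had a lower one. In RS 85.8% ± 3.62 of its reads (SD, n = 3) had tails of 120 to 210 nt. Its second contig, ENSMUST00000154540, had 0 reads over the P/D samples and 12 over the RS samples, at least 2.86-fold higher in RS against a floor of 3 reads over the P/D group.

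Txndc2 had 17 reads over the P/D samples and 382 over the RS samples. Txndc2-201 (ENSMUST00000050236, chr17:65637507-65642168, minus strand, 3 exons, 1861 nt, 550 codons) had 5, 6 and 0 reads in P/D samples against 65, 123 and 79 in RS samples, a ratio per read sequenced of 17.4 (exact 95% interval 9.55 to 35.2). Txndc2-202 (ENSMUST00000233702, 2 exons, 543 codons) had 3, 2 and 1 P/D reads and 28, 52 and 35 RS reads, a ratio of 13.7 (interval 6.11 to 38.2). In RS the first contig held 69.9%, 70.3% and 69.3% of Txndc2 reads, a spread of 0.497 percentage points (SD, n = 3). Mean tails of Txndc2-201 were 181 and 152 nt in P/D replicates 1 and 2, against 174, 154 and 164 nt in RS, which differed by -2.20 nt (standard error 11.7, adjusted p = 0.885 from limma, with P/D replicate 3 dropped for want of reads). Txndc2-202 differed by -0.515 nt (standard error 15.3, adjusted p = 0.979).

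Nme8 had long tails in both cell types and, of the 3, the most P/D reads, with 69. Nme8-202 (ENSMUST00000091763, chr13:19645078-19697794, minus strand, 17 exons, 2122 nt, 586 codons) had mean tails of 174, 187 and 181 nt in P/D samples against 187, 187 and 179 nt in RS samples, a difference of 3.28 nt (standard error 6.29, adjusted p = 0.686 from limma). In the P/D samples 80.4% ± 4.61 of its reads (SD, n = 3) had tails of 120 to 210 nt, against 86.7% ± 6.30 in RS (exact permutation test, p = 0.3). Its CPM were 108, 79.1 and 37.2 in P/D samples against 141, 201 and 143 in RS samples, a log2 difference of 1.14 (standard error 0.25, adjusted p = 1.39e-04 from edgeR). P/D replicate 3 was the lowest, and without it the difference fell to 0.77, still past the threshold. The processed transcript Nme8-203 (ENSMUST00000144820) had 7 P/D and 30 RS reads (ratio 3.07, exact 95% interval 1.32 to 8.27).

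The P/D levels of these genes are set here beside those of the spermatid markers. The P/D level was 7.15% of the RS level for Txndc8-201, 5.60% for Txndc2-201 and 2.89% for Prdx4-203, against 8.16% and 9.54% for the marker lists of elongating and round spermatids. For Gpx4-201, Sod1-201 and Nme8-202 it was 22.6%, 26.2% and 46.3%. Of the 12 round spermatid marker transcripts tested, 1 had longer tails in RS, and of the 16 elongating spermatid marker transcripts 4 did, with median tail differences of 5.23 and 8.02 nt. The part of spermatid RNA in the P/D values of Txndc8, Txndc2, Prdx4, Gpx4-201, Sod1 and Nme8 was not tested. Over 644 other transcripts with a log2 accumulation difference above 3, the median tail difference was 5.46 nt and 7.92% were called longer. Over 3365 others with a log2 difference between -1 and 1 it was 47.3 nt and 73.5%. These bounds were chosen after the values were seen. P/D read depth was not matched between these sets, and a transcript could pass the read minimum through its RS reads. The shares called longer are therefore descriptions only.

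**Figure D5:**
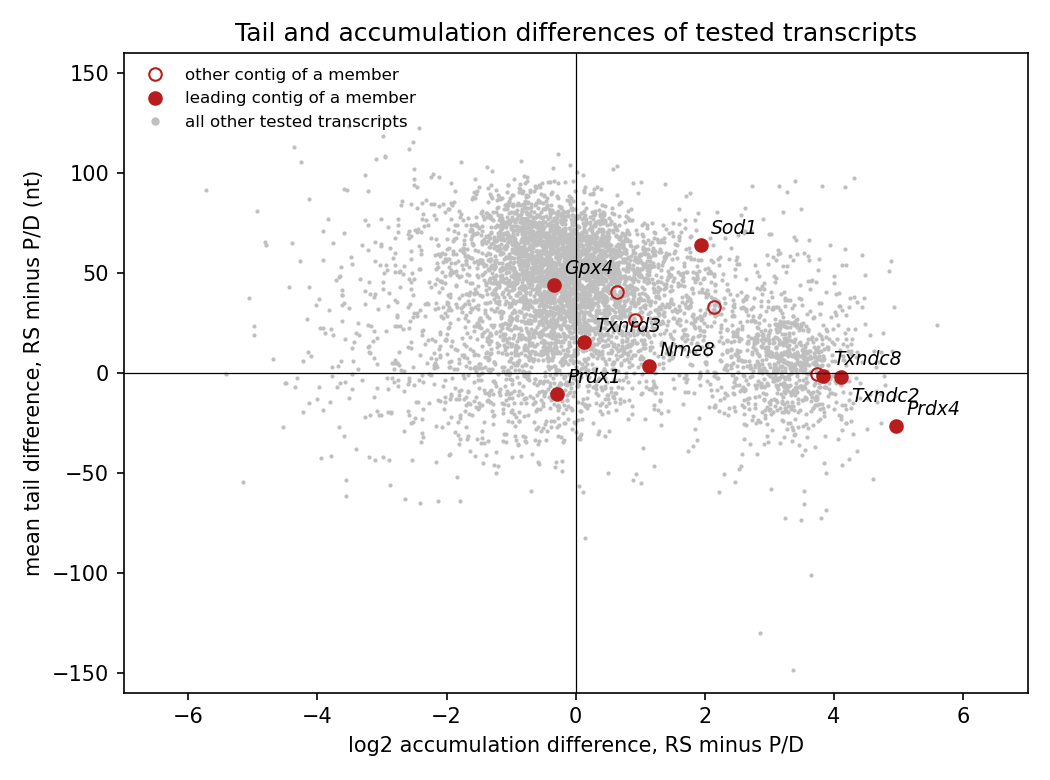
Difference in mean poly(A) tail in nt (vertical axis) against the log2 accumulation difference (horizontal axis), both RS minus P/D spermatocytes, for transcripts tested in both (grey points), with the leading contigs of the members in filled red circles and their other contigs in open red circles. Sod1 lies at 1.94 and 64.1 nt, Txndc8 and Txndc2 near 4 and 0 nt, and Gpx4 at -0.34 and 44.0 nt.

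Among the leading contigs, the order of mean tails in RS was Nme8 (184 ± 4.72 nt), Txndc8 (172 ± 0.227), Txndc2 (164 ± 9.69), Sod1 (163 ± 2.60), Prdx4 (147 ± 21.8), Gpx4 (145 ± 2.42), Txnrd3 (128 ± 8.72) and Prdx1 (124 ± 7.26; SD, n = 3 each). Neighbours in that order overlapped except for Nme8 and Txndc8, and for Gpx4 and Txnrd3. In P/D spermatocytes, Nme8, Txndc8 and Txndc2 lay between 166 and 181 nt, Prdx1 was next with 134 ± 18.2 nt, and Txnrd3 (112 ± 7.91), Gpx4 (101 ± 3.59) and Sod1 (99.0 ± 21.5) came last. There, the samples of Prdx1 did not overlap those of Txnrd3. The Prdx4 mean, from 3 reads, is left out of the P/D order. The other neighbours overlapped, and the Sod1 samples, from 76.6 to 119 nt, spanned those of Gpx4 and Txnrd3.

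The transcripts most like each leading contig in mean tail over the 6 samples were taken among those with 20 or more reads in all 6. For Gpx4-202 they were transcripts of 1700010I14Rik and Abhd17a, with root mean square differences of 3.70 and 3.79 nt. For Sod1 they were Cops7a (4.27 nt) and Ubac2 (7.34 nt), and for Txnrd3 H2afz (4.24 nt) and Btf3l4 (4.70 nt). Txndc8 was nearest to Oaz3 (7.47 nt) and Smcp (7.89 nt), which are on the elongating spermatid marker list, a list that does not separate that stage from RS. Nme8 was nearest to Nemp1 (8.94 nt) and the sperm surface gene Adam3 (10.1 nt), and Prdx1 to Arl6ip6 (4.82 nt) and Pfkp (8.23 nt). Txndc2 and Prdx4 had no mean in at least 1 sample and were not matched.

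Transcripts of 58 other genes from 7 redox lists had contigs in the data, of 109 genes listed. Of 53 transcripts tested for tails, 33 (62.3%) were longer and 0 shorter in RS by limma (0 shorter also at an unadjusted p below 0.05), with a median difference of 37.4 nt. Of 46 tested for accumulation, 15 (32.6%) were higher and 13 (28.3%) lower, with a median log2 difference of 0.01. Some of these transcripts entered through their RS reads, so the counts are descriptions. Among all transcripts tested, 54.2% had longer and 1.69% had shorter tails in RS, and 32.6% were higher and 30.8% lower. Whether the redox lists, together or singly, differ from these shares was not tested.

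In the glutathione list, 6 of 11 transcripts had longer tails, and 4 of 8 were higher and 2 lower. Tails of the monothiol glutaredoxin Glrx3 were longer by 73.2 nt (standard error 5.22) while its level fell by 0.50 on the log2 scale (adjusted p = 4.90e-04 from limma and 1.87e-04 from edgeR). Gclm, the modifier subunit of the enzyme that begins glutathione synthesis, had 88.4 ± 9.07 CPM in P/D spermatocytes against 19.5 ± 9.76 in RS (mean ± SD, n = 3). It had 3 to 30 reads per sample and entered the test through its P/D reads. The mitochondrial glutaredoxin Glrx2 had 8.50 ± 2.45 CPM in P/D spermatocytes against 89.4 ± 8.98 in RS (mean ± SD, n = 3), and it entered the test through its RS reads. The glutathione transferase transcripts Gstm5 ENSMUST00000004134 and ENSMUST00000170058 had tails longer by 57.4 and 65.2 nt, the second was higher by 1.18 on the log2 scale, and Gsto2 tails were longer by 37.1 nt.

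In the thioredoxin list, 7 of 9 transcripts had longer tails, and by edgeR 0 of 8 were higher (0 also at an unadjusted p below 0.05) and 1 was lower. That one, nucleoredoxin Nxn, fell by 1.02 on the log2 scale with tails longer by 44.7 nt. The mitochondrial thioredoxin Txn2 went from 91.3 ± 7.88 to 175 ± 4.69 nt (mean ± SD, n = 3), a difference of 83.7 nt (adjusted p = 4.90e-04 from limma), and Txndc9 tails were longer by 59.3 nt. Among the other peroxiredoxins, superoxide dismutases and catalase, 4 of 6 had longer tails, and 0 of 5 were higher by edgeR (0 also at an unadjusted p below 0.05) and 2 lower. Prdx5 fell by 1.00 and the mitochondrial Sod2 by 0.38 on the log2 scale. Tails were longer by 62.6 nt for Prdx6 and by 21.5 nt for Prdx5.

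Of the other selenoproteins, 3 of 9 transcripts had longer tails, and 3 of 8 were higher and 2 lower. The testis-rich Selenov, which entered the test through its RS reads, had 19.98 ± 4.78 CPM in P/D spermatocytes against 223 ± 36.3 in RS (mean ± SD, n = 3), and Selenok rose by 0.78 on the log2 scale. The selenophosphate synthetase gene Sephs2, itself a selenoprotein gene, fell by 1.08, and Selenow fell by 0.85 while its tails were longer by 54.9 nt. The Selenos transcripts ENSMUST00000206575 and ENSMUST00000101801 had tails longer by 37.4 and 37.8 nt. Of the genes that insert selenocysteine, 1 transcript could be tested, that of the elongation factor Eefsec, which had tails longer by 65.6 nt. Selenof, with a log2 difference of 0.46, was the other higher selenoprotein.

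In the oxidative folding list of the endoplasmic reticulum, 7 of 11 transcripts had longer tails, and 4 of 10 were higher and 5 lower. The testis-specific disulfide isomerase homologue Pdilt, which likewise entered through RS, had 10.7 ± 2.85 CPM in P/D spermatocytes against 156 ± 12.3 in RS (mean ± SD, n = 3). Txndc12, Pdia6 and Pdia3 fell by 1.14, 0.55 and 0.51 on the log2 scale. The other higher members were the transmembrane thioredoxins Tmx1, Tmx2 and Tmx4, which also entered through RS, with log2 differences of 1.12, 2.19 and 1.75, and the other lower ones P4hb and Qsox1, with -1.73 and -0.97. Tails were longer by 50.5 nt for Ero1lb, 55.0 nt for Txndc12 and 55.8 nt for Pdia6. In the list of NRF2 control and NADPH supply, only 3 of 12 genes had contigs, namely Hmox2, Me1 and Keap1. Of their transcripts tested, 5 of 6 had longer tails. For accumulation, 4 of 6 were higher, all from Hmox2 and Me1, and 1 was lower. For Hmox2, the constitutive heme oxygenase gene, ENSMUST00000120232 rose by 3.14 and ENSMUST00000004172 by 0.67 on the log2 scale, with tails longer by 20.8 and 48.6 nt. Tails of the malic enzyme gene Me1 were longer by 32.3 nt. The other higher ones, Hmox2 ENSMUST00000118885 and Me1 ENSMUST00000185374, had log2 differences of 3.27 and 1.00. The lower one was Keap1, the inhibitor of NRF2, with a log2 difference of -1.26 and tails longer by 72.7 nt. Eefsec, Selenof, the Tmx genes, P4hb, Qsox1, Keap1, Hmox2 ENSMUST00000118885 and Me1 ENSMUST00000185374 fell outside the naming rule and were named after their values were seen.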

How the data were processed

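Native poly(A)-selected RNA of 3 P/D and 3 RS samples was read by nanopore. After basecalling and demultiplexing, the authors mapped reads with minimap2 (2.20-r1061 in the submitters' processing notes) to GENCODE transcripts of GRCm38 (mm10), and deposited the raw count of reads on each contig. The deposited tail length of each read, a score in nt estimated with Nanopolish, forms the second table. The counts equalled the reads of the tail table for all 12114 contigs, and 11 of the 7992 member reads were listed on more than 1 contig.

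Counts were tested with edgeR 4.0.16 (TMM, filterByExpr, glmQLFit, glmQLFTest; repeats kept in library sizes) and, as an alternative, with DESeq2 1.42.0. Mean tails per sample were tested with limma 3.58.1 where 2 or more samples of 1 cell type held 10 or more reads and each cell type had 2 or more means. P-values were Benjamini-Hochberg adjusted over all transcripts, threshold 0.05; scripts were tested on simulated data. Each sample is a pool of 3 mice; both cell types came from the same mice, which the unpaired tests do not use. Tail classes include their lower and exclude their upper bound. A leading contig is the one with most reads. Every member contig is accounted for; for each redox list the 2 highest and 2 lowest changes in accumulation and in tail past the threshold are named, where all samples of 1 cell type held 20 reads or more. The members and lists were chosen with earlier results of these data known. Annotations came from GENCODE vM21. Same-numbered samples are not stated to come from the same pools, so the replicate number was a block only as an alternative.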

Additional observations from a re-analysis of the deposited data

How the results depend on the processing

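Accumulation calls for members depended on settings as follows. The single lower contig, Gpx4-202, was not called with DESeq2, with 10 reads required in every sample or with contigs of a gene summed, which left 0 lower contigs each time. Under that read filter, 7 member contigs could be tested and 4 were higher, and over all transcripts 758 were higher and 731 lower of 3077 tested. Without a count filter, 3404 of 11467 were higher. For tails, 1 member (Prdx1) was shorter on medians. Where every sample had to hold 20 reads, 3 of 3 member contigs tested were longer, and 1592 were longer and 45 shorter of 1827 transcripts. With contigs of a gene pooled, 2 of 8 genes were longer. At an adjusted p of 0.01, 34 of all transcripts were shorter. The read filters and the pooling left fewer features to test, and for the other changes the cause was not tested.

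Leaving out each sample in turn gave 8 to 10 higher, 0 to 1 lower, 4 to 6 longer and 0 to 0 shorter member contigs. The 0 lower came without RS replicate 2. Over all transcripts 66 to 141 were shorter, with 66 without RS replicate 2 and 78 without RS replicate 1, against 118. Differences that did not pass the test changed sign. Txnrd3-201 accumulation ranged from -0.027 (without P/D replicate 1) to 0.218 on the log2 scale, and tails from -11.8 to 16.6 nt for Txndc2-202, -6.99 to 2.70 nt for Txndc2-201, -4.27 to 3.05 nt for Txndc8-201 and -15.6 to 0.10 nt for Prdx1. Txndc2-202 tails were also above 0 on medians (0.947 nt), on the log2 scale (0.0095) and without RS replicate 3 (3.24 nt). The same held for Prdx4-203 on the log2 scale (0.083), weighted by reads (4.76 nt) and with contigs pooled (14.4 nt), where Txndc2 gave 4.44 nt.

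The share of tails of 120 to 210 nt differed, RS minus P/D, by 40.4 percentage points for Gpx4-202 and 6.35 for Nme8-202. For Txndc2-201 and Prdx4-203 the differences were -10.1 and 66.9. With bounds of 120 and 180 nt, they became 33.8 for Gpx4-202, 20.01 for Txndc2-201, -5.13 for Nme8-202 and 46.3 for Prdx4-203. Txndc2-201 and Nme8-202 thus changed sign. Above 110 nt with no upper bound the differences were 0.258 for Txndc2-201 and 27.0 for Prdx4-203. The P/D shares of these last contigs rest on 11 and 3 reads. Of the alternative values for single contigs, 338 kept direction and side of the threshold, 13 lost a call, 4 gained one and 12 changed sign.

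In fits with a replicate block, the calls stayed at 6 longer, 0 shorter, 8 higher and 1 lower member contig, and no member call changed. Over all transcripts the block gave 3577 longer, 92 shorter, 1980 higher and 1870 lower. Same-numbered samples had correlations of their deviations of -0.0106, 0.0771 and 0.0157 for tails and 0.0286, 0.236 and 0.0684 for log2 CPM. Differently numbered samples had -0.0816 to 0.0633 for tails and -0.166 to 0.117 for log2 CPM. These values do not settle which pools correspond. The numbers were not taken as pairs because the matching of pools is not stated.

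Depth limits the low members: Txndc2, Txndc8 and Prdx4-203 had 17, 25 and 3 P/D reads, and Prdx4 tails in P/D spermatocytes cannot be estimated. Isoform shares rest on reads that may not reach the first exon.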
